A study of Homo sapiens and Mus musculus with 18 samples.

Results

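The circadian clock genes described here are 10 genes of the daily timing loop, read in 8 mouse KPCA tumours. They are the nuclear receptor genes Nr1d1 and Nr1d2, the PAR bZIP genes Dbp and Tef, the repressor genes Bhlhe40, Per1, Per2, Per3 and Cry1, and the activator gene Arntl. They were taken by name from the tumour count table, where they make up 10 of 54532 genes, and all 10 had enough counts to enter the fits. They were selected on measured values of these same tumours, and their levels and all differences between tumour groups are counted as used in that choice, so tumour values are given as a description, with no p-value. Their human orthologues in the Met5a cell line were no part of that choice and were tested.

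The tumours fall into 3 groups by title, 4 from Amhr2 knock-out mice (KO), 2 from Amhr2 heterozygous mice (Het) and 2 from wild-type C57BL6J mice (WT). Amhr2 encodes a receptor for anti-Müllerian hormone. KPCA is a mouse line of high-grade serous ovarian carcinoma derived from fallopian tube epithelium, and all 8 tumours are of that line. The labels do not say which cells of a tumour lack Amhr2, and they give no age, tumour site or hour of collection. A genotype tag gives WT for every tumour, which leaves the title as the source of the group. Each tumour is named below by its group and number, and nothing in the labels says what the number counts. Both WT columns, and no others, have a suffix in the table, whose meaning and the WT genotype cannot be told apart. The Met5a libraries, from a human mesothelial line, are 4 with the V1 form of the receptor, described in the series as active, 3 with the V3 form, described as inactive, and 3 controls (CTR). Whether the libraries are separate cultures is not stated, so p-values cover the spread between samples alone, and that spread may be technical.

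In mammals the proteins of Arntl (also called Bmal1) and Clock pair on E-box sequences and switch on the Per and Cry genes, whose proteins then block that pair. The same pair drives Nr1d1 and Nr1d2, whose proteins (REV-ERB alpha and beta) repress Arntl, and it drives Dbp and Tef, whose proteins act on D-box sequences in further clock-controlled genes. In a running clock, Arntl and the Per, Nr1d and Dbp genes therefore peak at opposite times of day. Per1 is also a direct target of the glucocorticoid receptor, and Bhlhe40 (DEC1) also responds to low oxygen and to serum.

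Total counts ran from 17746902 to 28070669 per tumour and from 15489888 to 21642906 per Met5a library. Mitochondrial transcripts took 4.33% of the counts in KO543 and 4.87% in WT438, against 1.22% to 2.32% in the other 6 tumours, so these libraries stand apart. Amhr2 itself lay near the floor of 3 counts in every tumour, with 8, 11, 3 and 3 counts in KO437, KO445, KO479 and KO543, 11 and 5 in Het563 and Het569, and 0 and 5 in WT438 and WT568, so it does not check the labels. The keratin gene Krt8 was high in all 8 tumours (1125 to 2023 CPM, counts scaled to CPM with the library size). Epcam, another epithelial marker, stood at 119 CPM in KO543 and at no more than 1.75 CPM in the other 7.

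Per unit of gene length, Bhlhe40 was the most abundant of the 10 genes. It averaged 59.9 ± 19.1 FPKM (SD, n = 8; the deposited values, scaled by gene length and depth) and lay above Nr1d1 in 8 of 8 tumours. Nr1d1 followed at 21.5 ± 7.16 FPKM and Per1 at 18.1 ± 10.2 FPKM, with Nr1d1 above Per1 in 5 tumours. Tef (11.3 ± 3.91 FPKM), Nr1d2 (10.6 ± 1.54) and Dbp (10.2 ± 4.31) overlapped in their spread, as Tef lay above Nr1d2 in 4 tumours and Nr1d2 above Dbp in 5. Cry1 averaged 4.85 ± 2.23 FPKM and lay below Dbp in 8 of 8 tumours. Per2 (2.90 ± 1.40 FPKM) and Arntl (2.58 ± 0.33) did not separate, with Per2 the higher in 4 tumours, and Per3 was lowest at 1.49 ± 0.63 FPKM.

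The REV-ERB alpha gene Nr1d1 (ENSMUSG00000020889, chromosome 11, 98767932 to 98775333, minus strand in the deposited table) was higher in KO and in Het tumours than in WT tumours. It had 92.1, 67.4, 84.5 and 58.0 CPM in KO437, KO445, KO479 and KO543, 72.1 and 88.7 CPM in Het563 and Het569, and 36.9 and 34.9 CPM in WT438 and WT568. Every KO and Het tumour lay above both WT tumours, and the KO and Het tumours overlapped. The fitted log2 fold change was 1.07 (SE 0.22) for KO against WT, 1.16 (SE 0.24) for Het against WT and -0.09 (SE 0.21) for KO against Het. Nr1d1 shares 1075 bases with Thra, the thyroid hormone receptor alpha gene on the opposite strand, and the sources used here do not give whether counting used strand. Thra had 76.8, 63.2, 81.5 and 64.9 CPM in KO437, KO445, KO479 and KO543, 61.2 and 64.1 CPM in Het563 and Het569, and 77.2 and 58.9 CPM in WT438 and WT568, so its groups overlapped.

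Bhlhe40 (ENSMUSG00000030103, chromosome 6, 108660629 to 108666925, plus strand) encodes a repressor that competes for E-boxes. It had 419, 296, 252 and 378 CPM in KO437, KO445, KO479 and KO543, 283 and 315 CPM in Het563 and Het569, and 167 and 164 CPM in WT438 and WT568. As with Nr1d1, all 6 KO and Het tumours lay above both WT tumours. The log2 fold change was 1.02 (SE 0.23) for KO against WT, 0.85 (SE 0.25) for Het against WT and 0.17 (SE 0.22) for KO against Het. The WT tumours enter both of the first 2 comparisons, so these are not separate observations. In bulk tumours, fewer cells of a type and less RNA per cell cannot be told apart.

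**Figure D1:**
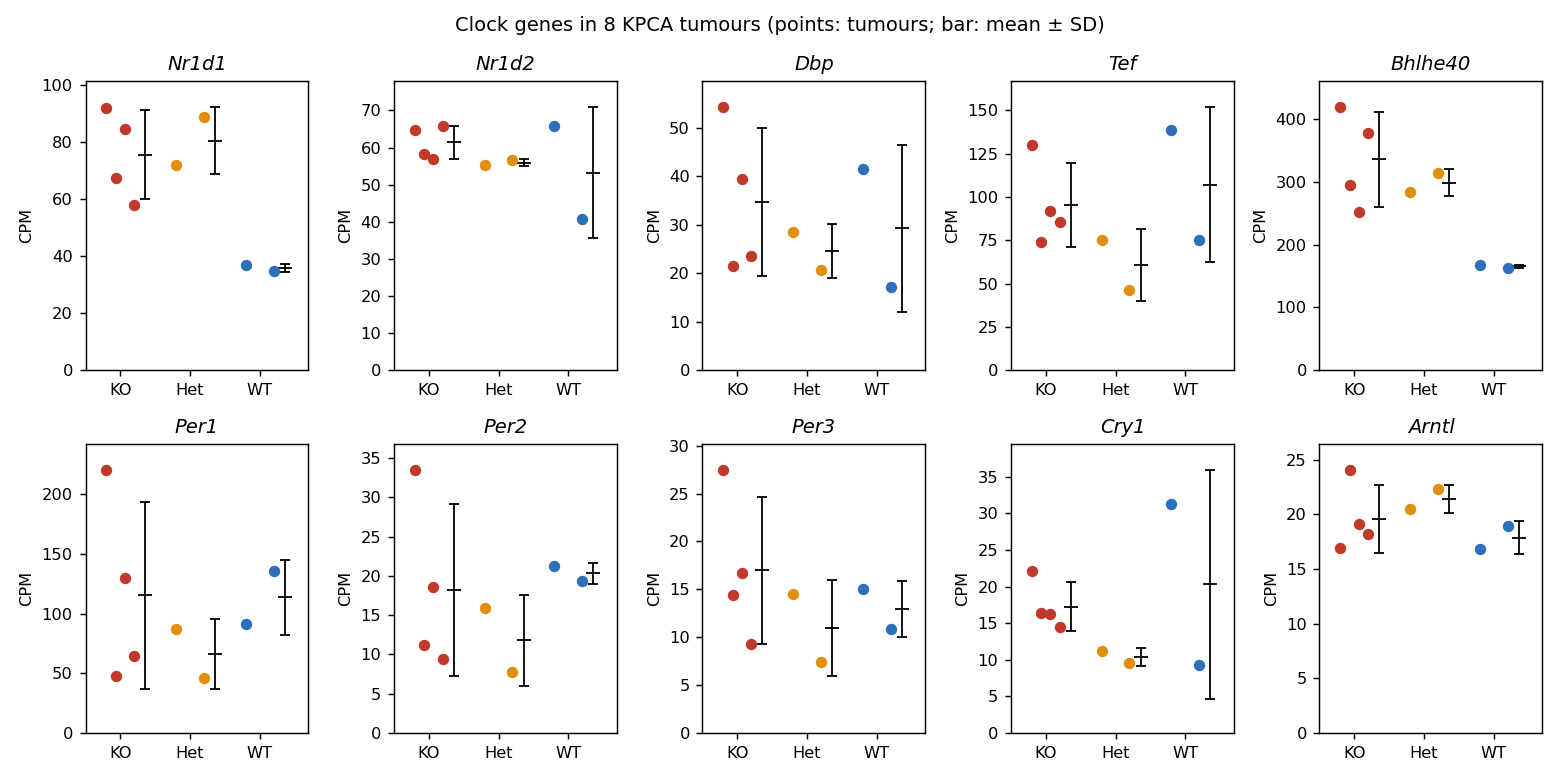
Level of each clock gene in CPM (vertical axis, from 0) by tumour group (KO, Het, WT on the horizontal axis); points are tumours in the order of their numbers and bars are the group mean ± SD (n = 4, 2 and 2). Nr1d1 lies between 58.0 and 92.1 CPM in KO tumours and at 36.9 and 34.9 CPM in WT tumours, while Per1 spans 47.4 to 220.4 CPM within KO alone.

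Against WT, 2 of the 10 clock genes had KO groups that do not overlap with WT and lie higher, Nr1d1 and Bhlhe40, and none lay lower. Of all 16287 tested genes, 5.69% lay higher in this way and 5.26% lower, 11% in either direction. No gene of the 16287 (0%) was called in this comparison by the quasi-likelihood test of edgeR at an adjusted p of 0.05, where 648 genes had an unadjusted p under 0.05 and DESeq2 called 2, neither of them a clock gene. The median log2 fold change was 0.17 over the 10 clock genes, 7 positive and 3 negative, and -0.012 over all tested genes. With both KO543 and WT438 left out, 6 of the 10 did not overlap, where 52% of all tested genes do so, and with WT438 or WT568 alone left out 5 did (41.6% and 54.9% of all genes). Nr1d1 and Bhlhe40 kept a log2 fold change of 0.96 to 1.18 and 0.90 to 1.14 when single tumours were left out.

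Some genes outside the clock split the tumours in the same way, but the summed hypoxia, immediate-early and pancreatic acinar lists below overlapped between KO and WT tumours. Vegfa, a hypoxia target, had 432, 471, 311 and 364 CPM in KO437, KO445, KO479 and KO543, 459 and 435 CPM in Het563 and Het569, and 231 and 226 CPM in WT438 and WT568, so that its groups split like those of Nr1d1. Of the 10 hypoxia genes listed, 4 had KO tumours wholly above WT tumours, where 5.69% of all tested genes did so. The largest log2 fold change against WT in the list was that of Ankrd37 (1.48, SE 0.29), which DESeq2 called and edgeR did not. The log2 fold change against WT was negative for 3, Car9 (-0.44), Bnip3 (-0.13) and Ndrg1 (-0.02). The summed list ran from 1687 to 2359 CPM in KO, from 1980 to 2071 in Het and from 1042 to 2056 in WT tumours. Its mean log2 CPM, each gene centred on its mean over the 8 tumours, was 0.09 in WT438 and -0.87 in WT568. In KO tumours that mean ran from -0.03 to 0.40. The 6 fibroblast markers summed to 11000 to 13190 CPM in KO, 10200 to 10240 in Het and 8238 to 8913 in WT tumours, with no overlap. Col1a1 and Col3a1 (means of 5700 and 4994 CPM in KO) made up most of this sum. They were the 2 of the 6 wholly higher in KO than in WT (5.69% of all tested genes), while Col1a2, Dcn, Lum and Pdgfra overlapped. In the centred mean of this list KO tumours (-0.28 to 0.25) overlapped with Het tumours (0.02 and 0.13) and WT tumours (-0.36 and 0.001). The 10 immediate-early genes, which cells switch on within minutes of a stimulus, summed to 475.8 to 1649 CPM in KO, 638.9 to 720.1 in Het and 464.7 to 477.4 in WT tumours. Against WT, 1 of them (Junb) lay wholly higher in KO and 5 in Het, where 5.69% and 14.7% of all tested genes did so. Pancreatic acinar markers, 8 genes, summed to 11.8 to 58.4 CPM in KO, 11.6 to 22.6 in Het and 53.8 to 69.7 in WT tumours. All 7 tested ones had lower fitted values in KO and in Het than in WT. Of these, 2 lay wholly lower in KO and 6 in Het, where 5.26% and 13.9% of all tested genes did so. The part of these lists in the difference of Nr1d1 and Bhlhe40 was not tested. Vegfa and Ankrd37 were picked with their values known.

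Nr1d2 (ENSMUSG00000021775, chromosome 14, 18204054 to 18239127), the REV-ERB beta gene, did not share the pattern of Nr1d1. It had 64.6, 58.3, 56.9 and 65.8 CPM in KO437, KO445, KO479 and KO543, 55.4 and 56.6 CPM in Het563 and Het569, and 65.7 and 40.8 CPM in WT438 and WT568. KO tumours overlapped with WT tumours and lay just above both Het tumours, with log2 fold changes of 0.20 (SE 0.20) against WT and 0.13 (SE 0.20) against Het. The value against WT was 0.59 without WT438 and -0.10 without WT568. The WT tumours held both the second highest and the lowest value.

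The PAR bZIP genes varied widely within groups. Dbp (ENSMUSG00000059824, chromosome 7, 45705088 to 45710203), a standard marker of clock output, had 54.2, 21.5, 39.5 and 23.5 CPM in KO437, KO445, KO479 and KO543, 28.5 and 20.6 CPM in Het563 and Het569, and 41.4 and 17.1 CPM in WT438 and WT568. Its WT tumours were thus among the highest and the lowest of all 8, and the log2 fold change of KO against WT was 0.24 (SE 0.43), or 1.02 without WT438 and -0.26 without WT568. Tef (ENSMUSG00000022389, chromosome 15, 81802421 to 81826863) had 129.7, 73.9, 92.0 and 85.5 CPM in KO437, KO445, KO479 and KO543, 75.3 and 46.0 CPM in Het563 and Het569, and 138.6 and 75.3 CPM in WT438 and WT568. The Het tumours lay below both WT tumours in Tef only by a margin of less than 1 CPM. Dbp shares 737 bases with Sphk2 on the opposite strand, which stood between 23.7 and 35.4 CPM and was highest in Het569.

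The period genes, which encode the PER repressors, had the widest ranges of the 10. Per1 (ENSMUSG00000020893, chromosome 11, 69095217 to 69109960) had 220.4, 47.4, 129.8 and 64.6 CPM in KO437, KO445, KO479 and KO543, 87.3 and 45.8 CPM in Het563 and Het569, and 91.3 and 136 CPM in WT438 and WT568. The highest and the second lowest tumours were both KO, and KO and WT had nearly the same mean (116 ± 78.4 and 114 ± 31.6 CPM, SD, n = 4 and 2). Per2 (ENSMUSG00000055866, chromosome 1, 91415982 to 91459324) had 33.5, 11.2, 18.5 and 9.43 CPM in KO437, KO445, KO479 and KO543, 15.9 and 7.71 CPM in Het563 and Het569, and 21.2 and 19.4 CPM in WT438 and WT568. Per3 (ENSMUSG00000028957, chromosome 4, 151003652 to 151044665) had 27.5, 14.4, 16.7 and 9.27 CPM in KO437, KO445, KO479 and KO543, 14.5 and 7.43 CPM in Het563 and Het569, and 15.1 and 10.9 CPM in WT438 and WT568. All 3 genes were highest in KO437 and lowest in Het569. Het569 also held 168.9 CPM of 8 adipocyte markers, against 17.9 to 57.5 CPM in the other 7 tumours, and the part of this in its low values was not tested. The whole of Per3 lies inside Camta1 on the same strand, so reads of that gene (9.57 to 15.5 CPM) may be split between them.

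Between its lowest and highest tumour Per1 spanned 4.81-fold, a range in log2 CPM that 3.57% of the tested genes with a mean of at least 5 CPM exceeded. Per2 spanned 4.34-fold (4.43% of genes with a larger range), Per3 3.69-fold (6.43%) and Cry1 3.39-fold (7.68%). Nr1d2 and Arntl were steady by this measure, at 1.61-fold (59%) and 1.43-fold (79%). KO437 held the highest value of 6 of the 10 genes (Nr1d1, Dbp, Bhlhe40 and the 3 period genes), against 9.05% of all 11178 such genes. Het569 held the lowest value of 4 (Tef and the period genes), against 6.52% of all genes, and WT568 the lowest of 5 (Nr1d1, Nr1d2, Dbp, Bhlhe40 and Cry1), against 14.7%.

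Cry1 (ENSMUSG00000020038, chromosome 10, 85131700 to 85185064) encodes a cryptochrome, a repressor of the activator pair. It had 22.1, 16.3, 16.2 and 14.4 CPM in KO437, KO445, KO479 and KO543, 11.3 and 9.51 CPM in Het563 and Het569, and 31.3 and 9.24 CPM in WT438 and WT568. All 4 KO tumours lay above both Het tumours (log2 fold change 0.73, SE 0.42, or 0.09 with tumour numbers under or over 500 as a covariate). These 6 tumours lay between the 2 WT tumours, which were the highest and the lowest of all 8. The log2 fold change of KO against WT was -0.24 (SE 0.40), or 0.90 without WT438 and -0.86 without WT568.

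Arntl (ENSMUSG00000055116, chromosome 7, 113207465 to 113314126), the activator, was the steadiest of the 10. It had 16.9, 24.1, 19.1 and 18.2 CPM in KO437, KO445, KO479 and KO543, 20.5 and 22.3 CPM in Het563 and Het569, and 16.8 and 19.0 CPM in WT438 and WT568. The Het tumours lay above both WT tumours, with a log2 fold change of 0.26 (SE 0.24), and the KO tumours overlapped with both other groups. Arntl was lowest in WT438 and KO437, the tumours in which Tef was highest.

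**Figure D2:**
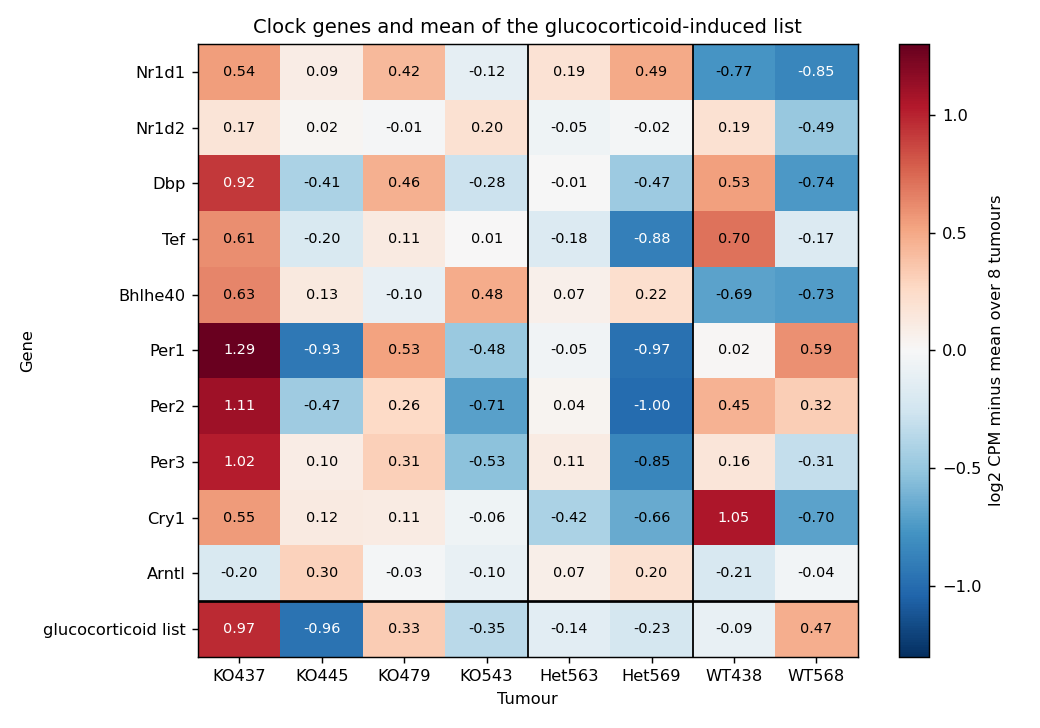
Log2 CPM of each clock gene minus its mean over the 8 tumours (rows are genes, columns are tumours grouped as KO, Het and WT, colour and printed number give the value), with the mean of 9 glucocorticoid-induced genes in the last row. Per1 runs from 1.29 in KO437 to -0.97 in Het569, Nr1d1 is at -0.77 and -0.85 in the WT tumours, and Arntl stays between -0.21 and 0.30.

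Set against Het tumours, KO tumours had 2 of the 10 genes wholly higher, Nr1d2 and Cry1, and none wholly lower, where 6.01% of all tested genes lay higher and 5.68% lower. The log2 fold change was positive for 8 of the 10, among them Per1 (0.80, SE 0.56), Tef (0.65, SE 0.32), Per3 (0.63, SE 0.43) and Per2 (0.62, SE 0.50), and the median was 0.56, against 0.018 over all genes. Het569, the tumour lowest in Tef and the period genes, moved these values. Without it the log2 fold change was 0.34 for Tef and 0.22 for Per3, and without KO437 that of Per1 was 0.28 and that of Per2 0.14. Without Het563 they stood higher, at 1.04 for Tef, 1.33 for Per1, 1.23 for Per2 and 1.18 for Per3. No gene was called by edgeR (0%), 278 had an unadjusted p under 0.05, and the 1 gene that DESeq2 called was not a clock gene. With no filter on low counts 0.532% of genes were called, with no clock gene among them.

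Between Het and WT tumours, 6 of the 10 did not overlap, 3 higher in Het (Nr1d1, Bhlhe40 and Arntl) and 3 lower (Tef, Per1 and Per2). With 2 tumours a side such a split is common, as 14.7% of all tested genes lay wholly higher in Het and 13.9% wholly lower, 28.6% in either direction. Without WT438, or without KO543 and WT438, 70% of all genes split in this way, and without WT568 82.9%. Per1 and Per2 had log2 fold changes of -0.77 (SE 0.63) and -0.78 (SE 0.56), Tef of -0.82 (SE 0.36) and Cry1 of -0.97 (SE 0.47). Cry1 turned to 0.19 without WT438 and stood at -1.60 without WT568. Per1 was -0.37 and Per2 -0.34 without Het569, and -1.3 and -1.39 without Het563. Tef was -0.29 without WT438 and -1.21 without Het563. No gene was called by edgeR (0%) or by DESeq2 (0 genes), and 314 had an unadjusted p under 0.05 in edgeR.

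With the WT and Het tumours pooled, 4 KO tumours stood against 4 others, and none of the 10 genes had groups that do not overlap (1.32% of 15205 tested genes lay higher and 1.12% lower). Bhlhe40 had a log2 fold change of 0.54 (SE 0.25), Per3 of 0.51 (SE 0.33) and Nr1d1 of 0.38 (SE 0.30), and 9 of the 10 were positive, with a median of 0.28 against -0.0081 over all genes. Per3 was 0.17 without KO437, and Nr1d1 was 0.20 without WT568 and 0.66 without Het569. No gene was called by edgeR (0%), 630 had an unadjusted p under 0.05, and neither of the 2 genes that DESeq2 called was a clock gene. These 4 comparisons share tumours, so their values for a gene are not independent.

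**Figure D3:**
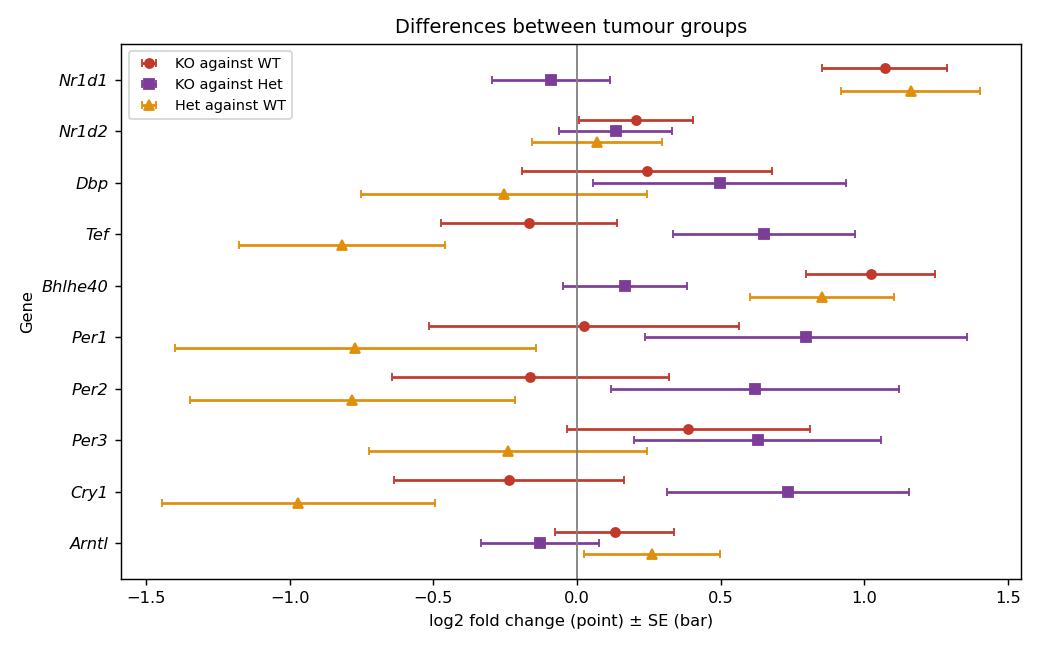
Log2 fold change of each clock gene (horizontal axis; points, with bars of 1 SE from the edgeR fit) for KO against WT, KO against Het and Het against WT; genes run down the page. Nr1d1 and Bhlhe40 stand near 1 in both comparisons with WT (1.07 and 1.02 for KO, 1.16 and 0.85 for Het), and the bars of Per1, Per2 and Per3 are wide.

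Of 23 other clock genes, 22 had enough counts in the 3-group fit and none was called by edgeR or by DESeq2, or had an unadjusted p under 0.05 in edgeR, in any tumour comparison. The gene left out was Hlf, the third PAR bZIP gene, which reached 1.31 CPM in KO437 and at most 0.42 CPM in the other tumours. In KO against WT, 15 of the 22 were positive with a median log2 fold change of 0.093, and 1 lay wholly higher, where 5.69% of all tested genes do so. It was the kinase gene Gsk3b, whose protein phosphorylates clock proteins. Gsk3b had 122, 102, 101 and 106 CPM in KO437, KO445, KO479 and KO543, 97.0 and 86.5 CPM in Het563 and Het569, and 88.0 and 93.6 CPM in WT438 and WT568. Its log2 fold change against WT was 0.24 (SE 0.15, edgeR adjusted p = 0.95). The other genes with the smallest p in that comparison were Nfil3, a D-box repressor (33.3 ± 7.57 CPM in KO and 24.0 ± 4.01 CPM in WT tumours, SD, n = 4 and 2; log2 fold change 0.47, SE 0.24), and Fbxw11, a subunit of the ligase that marks PER proteins for decay (0.32, SE 0.18), both with an edgeR adjusted p of 0.95. In KO against Het 14 of the 22 were positive (median 0.11), with 2 wholly higher and 1 wholly lower (6.01% and 5.68% of all genes). In Het against WT 9 were positive (median -0.032), with 2 wholly higher and 4 wholly lower (14.7% and 13.9% of all genes). In KO against the pooled others 15 of 21 were positive (median 0.10), with 1 wholly higher (1.32% of all genes).

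The expression profile most like that of Dbp over the 8 tumours was not that of a core clock gene. Profiles were compared by the root mean square difference of centred log2 CPM over 11177 genes, for which Dbp itself has a spread of 0.54. The 5 closest were Aldoc, the aldolase C gene (0.19), Armcx5 (0.24), Spata7 (0.27) and the linker histone genes Hist1h1c (0.27) and H1f0 (0.27). Among listed clock genes the closest were Ciart, a repressor gene, at rank 8 (0.28), Bhlhe41 at rank 39 (0.32), Per3 at rank 45 (0.32) and Tef at rank 59 (0.33). For Arntl the 5 closest were Vezt (0.063), Gnl3 (0.072), Wdr18 (0.076), Sympk (0.076) and Josd1 (0.078), beside its own spread of 0.17. These ranks describe 8 tumours and carry no test.

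Arntl and Tef ran against each other over the tumours. Pearson's r was -0.80 and Spearman's rho -0.90 (n = 8), given as a description with no p, since the levels of both genes were used in the choice. Without Het569 and KO445, the tumours farthest from the median of Arntl, r was -0.90. For Per1 and Arntl r was -0.72 and rho -0.64, and r was -0.29 without those tumours, so that relation rests on them. Dbp and Arntl had r = -0.63 and rho = -0.60, with r = -0.54 without those tumours. For the other genes r with Arntl was -0.68 (Per2), -0.56 (Cry1), -0.43 (Per3) and -0.27 (Nr1d2). Nr1d1, whose WT tumours form a cluster of their own, is given no pooled r, and Bhlhe40, whose WT tumours also stand apart, is given none either. The sign of r with Arntl was positive for Nr1d1 and for Bhlhe40, so not all of the genes ran against Arntl.

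Per1 and the mean of a list of glucocorticoid-induced genes were high and low in much the same tumours. Fkbp5, a glucocorticoid receptor target, had 393, 99.9, 344 and 105 CPM in KO437, KO445, KO479 and KO543, 176 and 180.0 CPM in Het563 and Het569, and 312 and 369 CPM in WT438 and WT568. Tsc22d3, which encodes GILZ, had 282, 73.1, 226 and 64.0 CPM in the KO tumours, 140.4 and 88.5 CPM in the Het tumours, and 301 and 285 CPM in the WT tumours, each in the same order. Both genes were low in KO445 and KO543 and high in KO437, KO479 and the WT tumours. Over 9 such genes without Per1, the mean of centred log2 CPM was 0.97, -0.96, 0.33 and -0.35 in KO437, KO445, KO479 and KO543, -0.14 and -0.23 in Het563 and Het569, and -0.09 and 0.47 in WT438 and WT568. Fkbp5 and Tsc22d3 were picked with their values known, and not every gene of the list ran as they did. Klf9 was lower in WT tumours (26.5 to 29.8 CPM) than in KO tumours (37.1 to 60.9 CPM). Cdkn1a was lower in WT tumours (41.7 to 42.9 CPM) than in Het tumours (61.3 to 66.7 CPM). Zbtb16, also in the mean, was low, with 0 to 7.21 CPM in KO, 0.50 to 0.77 in Het and 0.75 to 5.95 in WT tumours. Each gene has the same weight in the mean, so a gene near 0 CPM can move it far. The part of Zbtb16 in it was not tested.

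Across the 8 tumours Per1 and this mean had r = 0.93 and rho = 0.93 (n = 8), again with no p because the levels of Per1 were used in the choice. Without KO437 and KO445, the tumours farthest from the median of the list, r was 0.87. Per2 had r = 0.78 and rho = 0.83, with r = 0.68 without those tumours. With the same list, r was 0.52 (Dbp), 0.52 (Per3), 0.44 (Tef), 0.11 (Cry1), -0.18 (Nr1d2) and -0.69 (Arntl). Per1 had the largest r and was picked with its values known. These are some of 49 relations computed, all over libraries that each supply both values. Among the others, Nr1d2 and the mean of the hypoxia list had r = 0.85 with rho = 0.07, and r was -0.59 without KO437 and WT568. The tumours are too few to give r within the tumours numbered under 500 or over 500.

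**Figure D4:**
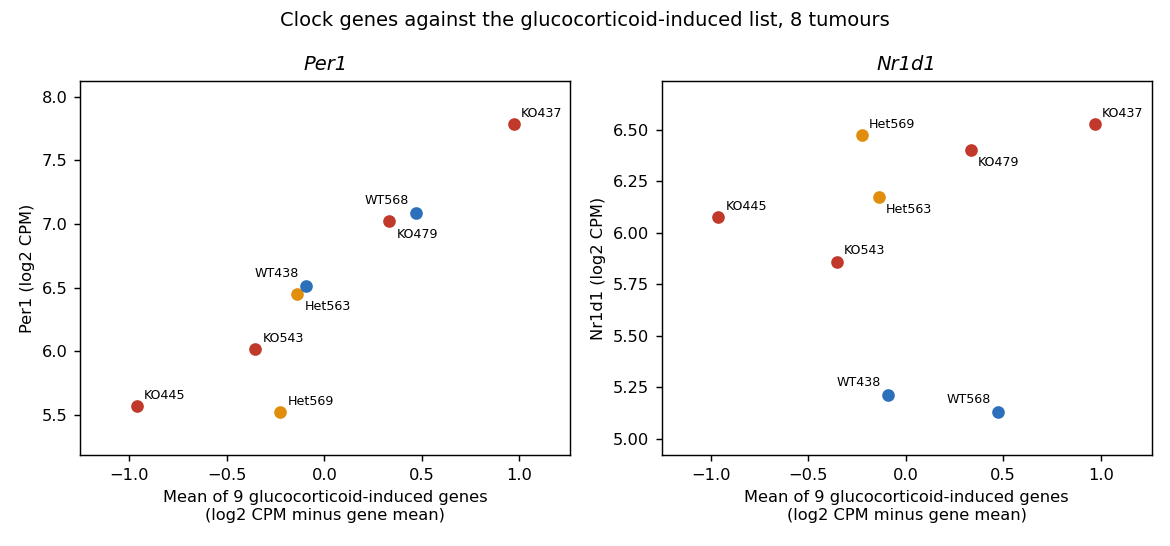
Log2 CPM of Per1 (left) and Nr1d1 (right) against the mean of 9 glucocorticoid-induced genes (log2 CPM minus the gene's mean over tumours); points are the 8 tumours, coloured by group and labelled. Per1 goes along with the list from KO445 (-0.96 on the horizontal axis) to KO437 (0.97), whereas for Nr1d1 the WT tumours lie below all others at any list level.

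The human orthologues were read in the 10 Met5a libraries, where AMHR2, the introduced receptor gene, varied widely within groups. It had 68.1, 20.6, 1.98 and 5253 CPM in V1 1 to V1 4, 6061, 61.8 and 2.72 CPM in V3 1 to V3 3, and 0 counts in CTR 1 to CTR 3. V1 3 and V3 3 thus held little of it, and the V1 and V3 groups mix low and high levels. The promoter sequences of 4 orthologues are shown because in these 4 the highest library, V1 1, described below, had the largest ratio to the next library. Each is the 250 bases before a gene start as given by RefSeq on GRCh38.p14, 5' to 3' on the gene's strand. They are PER1 (chr17:8152405-8152654, minus strand), NR1D1 (chr17:40100590-40100839, minus strand), TEF (chr22:41367205-41367454, plus strand) and PER3 (chr1:7784041-7784290, plus strand). Capitals mark the E-box CACGTG, its variant CACGTT (in NR1D1 read on the other strand, as AACGTG) or the D-box TTATGTAA.
PER1: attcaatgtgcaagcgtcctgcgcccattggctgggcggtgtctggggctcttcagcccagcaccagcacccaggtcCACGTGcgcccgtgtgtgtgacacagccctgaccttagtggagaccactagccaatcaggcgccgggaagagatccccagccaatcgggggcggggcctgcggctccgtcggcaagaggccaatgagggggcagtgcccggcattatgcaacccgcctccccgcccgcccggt
NR1D1: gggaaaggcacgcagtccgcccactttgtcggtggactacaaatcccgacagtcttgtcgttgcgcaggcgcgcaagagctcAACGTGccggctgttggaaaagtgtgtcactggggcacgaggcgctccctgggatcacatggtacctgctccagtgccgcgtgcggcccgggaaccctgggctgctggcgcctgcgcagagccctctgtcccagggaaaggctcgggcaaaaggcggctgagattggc
TEF: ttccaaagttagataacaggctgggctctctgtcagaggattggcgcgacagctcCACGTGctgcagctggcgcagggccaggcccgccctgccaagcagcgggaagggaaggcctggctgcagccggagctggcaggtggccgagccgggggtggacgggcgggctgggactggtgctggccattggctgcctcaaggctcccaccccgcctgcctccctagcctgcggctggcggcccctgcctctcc
PER3: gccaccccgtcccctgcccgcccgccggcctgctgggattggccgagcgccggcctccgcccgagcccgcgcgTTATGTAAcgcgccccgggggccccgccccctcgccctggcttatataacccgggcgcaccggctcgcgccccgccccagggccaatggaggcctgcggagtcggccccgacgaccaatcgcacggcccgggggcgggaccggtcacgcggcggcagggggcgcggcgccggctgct

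Both strands were searched, and CACGTG is the same on both. The E-box starts 173 bases before the RefSeq gene start in PER1 and 195 in TEF, the variant 168 in NR1D1 and the D-box 177 in PER3. In the deposited gene positions PER1 reaches up to 8156506 and NR1D1 to 40100725, both on the minus strand, and TEF starts at 41367333. By those positions the PER1 window lies inside the gene, and the NR1D1 and TEF windows overlap theirs. Over all 10 orthologues there were 14 such windows, as some genes have more than 1 start, and all 10 matched RefSeq, ARNTL under the name BMAL1. The window printed for a gene is its first with an E-box or D-box form, so a match there was fixed by that choice. The other PER3 window (chr1:7784179-7784428) holds none. CACGTG was in windows of 4 orthologues (PER1, TEF, BHLHE40 and NR1D2), CACGTT in those of 3 (NR1D1, PER2 and CRY1) and TTATGTAA in those of 2 (PER3 and NR1D2). Another D-box form, TTACGTAA, was in none of them. Counted by window, 5 of the 14 hold CACGTG, 3 CACGTT and 2 TTATGTAA. Of 35116 promoter windows of that length, 6.34% hold CACGTG, 4.55% CACGTT, 0.834% TTATGTAA and 0.105% TTACGTAA. A match is a description of letters, and no binding was measured.

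In Met5a the clock orthologues did not separate the groups, except CRY1 in V1 against CTR, but 1 library, V1 1, stood far above the rest in 5 orthologues. NR1D1 (ENSG00000126368, chromosome 17, 40092787 to 40100725, GRCh38) had 86.3, 12.5, 5.79 and 12.3 CPM in V1 1 to V1 4, 12.5, 10.8 and 15.1 CPM in V3 1 to V3 3, and 9.21, 11.2 and 13.7 CPM in CTR 1 to CTR 3. Outside V1 1 the 9 libraries lay within 5.79 and 15.1 CPM. The V1 1 value was 5.70-fold that of the next library. THRA, which shares 1081 bases with NR1D1 on the opposite strand, was lowest in V1 1, at 18.8 CPM, and reached 46.1 CPM in CTR 3.

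PER1 had 182, 37.0, 22.6 and 49.97 CPM in V1 1 to V1 4, 46.8, 38.8 and 52.4 CPM in V3 1 to V3 3, and 50.1, 59.2 and 64.7 CPM in CTR 1 to CTR 3. PER3 had 62.1, 11.1, 5.69 and 18.7 CPM in the V1 libraries, 17.7, 10.7 and 15.4 CPM in the V3 libraries, and 18.9, 15.8 and 15.7 CPM in the CTR libraries. Both period genes repeated the order of NR1D1 at the ends, with V1 1 highest and V1 3 lowest of all 10. TEF had 66.2, 13.2, 6.96 and 16.1 CPM in the V1 libraries, 16.4, 11.2 and 13.6 CPM in the V3 libraries, and 16.5, 18.1 and 12.6 CPM in the CTR libraries. PER2 had 41.1, 7.93, 5.08 and 16.0 CPM in the V1 libraries, 14.0, 10.7 and 11.8 CPM in the V3 libraries, and 13.2, 15.2 and 7.49 CPM in the CTR libraries. V1 1 was 3.65-fold (TEF), 3.28-fold (PER3), 2.81-fold (PER1) and 2.56-fold (PER2) above the next library.

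V1 1 was the highest library for 9 of the 10 orthologues, all but BHLHE40, where 16.9% of 11576 genes with a mean of at least 5 CPM were highest there and 0.993% were so by at least 2-fold. The gap was smaller in ARNTL (25.0 CPM in V1 1 and 17.2 CPM in the next), CRY1 (138 and 95.8), DBP (24.7 and 18.6) and NR1D2 (125 and 108). BHLHE40 ran the other way by group, at 167, 154, 72.4 and 106 CPM in V1 1 to V1 4, 111, 95.1 and 173 CPM in V3 1 to V3 3, and 187, 148 and 234 CPM in CTR 1 to CTR 3. ARNTL, the activator, was thus highest in the same library as the PER, NR1D and TEF genes. V1 1 had the smallest total count of the 10 and 4.93% mitochondrial counts, next to 5.09% in CTR 3 and 3.22% to 4.17% in the other 8, and the part of these in its clock levels was not tested.

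**Figure D5:**
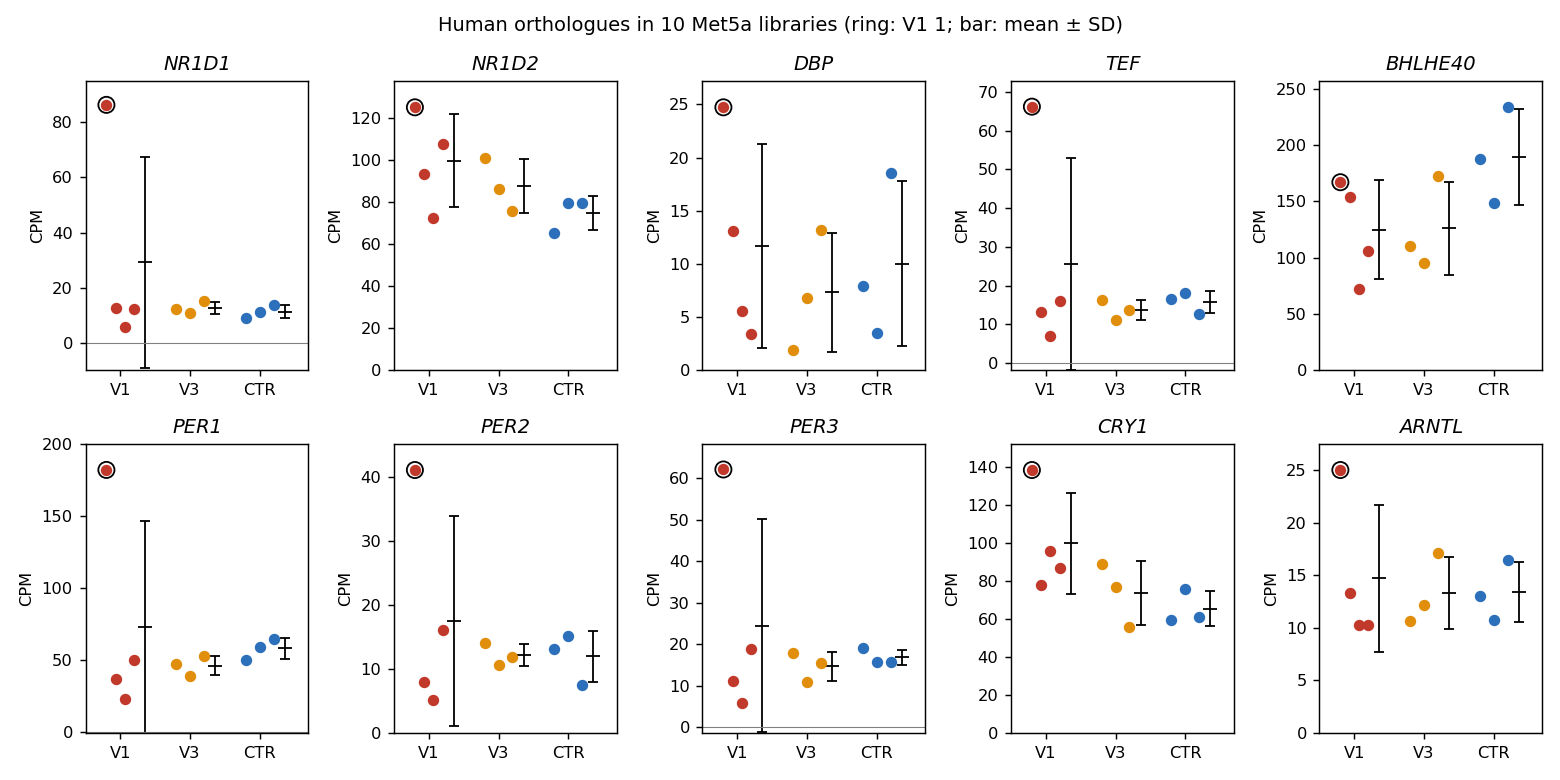
Level of each human orthologue in CPM (vertical axis) in the V1, V3 and CTR libraries of Met5a (horizontal axis); points are libraries, the ring marks V1 1, and bars are mean ± SD (n = 4, 3 and 3), which reach below 0 in panels where 1 library is far from the others. V1 1 lies at 86.3 CPM in NR1D1 and 182 CPM in PER1, against at most 15.1 and 64.7 CPM in the other 9 libraries.

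None of the 10 orthologues was called by edgeR or by DESeq2 in any Met5a comparison, and the only one with an unadjusted p under 0.05 in edgeR was CRY1 in V1 against CTR. For V1 against CTR, the active receptor form at these unequal levels against control cells, 1 of 17175 genes was called (0.00582%). In that comparison NR1D1 had a log2 fold change of 1.36 ± 0.75 (SE) at an adjusted p of 0.694 in edgeR, TEF of 0.70 ± 0.60 (SE) at an adjusted p of 0.812 in edgeR and PER1 of 0.33 ± 0.55 (SE) at an adjusted p of 0.917 in edgeR. All 3 turned negative without V1 1, at -0.16, -0.39 and -0.68. CRY1 was the 1 orthologue with V1 libraries wholly above CTR libraries, at 138, 77.9, 95.8 and 86.5 CPM in V1 1 to V1 4 and 59.4, 75.8 and 60.8 CPM in CTR 1 to CTR 3, where 3.27% of all tested genes lay wholly higher and 3.34% wholly lower. Its log2 fold change was 0.61 (SE 0.23, edgeR adjusted p = 0.61) and 0.41 without V1 1. BHLHE40 had -0.60 (SE 0.30, edgeR adjusted p = 0.673).

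For V3 against CTR no gene was called by edgeR (0%), with 727 at an unadjusted p under 0.05 and 9 called by DESeq2, and no orthologue had groups that do not overlap (4.93% of genes lay higher and 5.17% lower). The largest difference among the orthologues was that of BHLHE40, with a log2 fold change of -0.59 ± 0.33 (SE) at an adjusted p of 1 in edgeR, and NR1D1 stood at 0.17 (SE 0.77). For V1 against V3, the active against the inactive form, no gene was called either (0%), with 689 at an unadjusted p under 0.05 and 1 called by DESeq2, and again no orthologue separated the groups (2.28% of genes lay higher and 2.64% lower). NR1D1 had a log2 fold change of 1.19 ± 0.74 (SE) at an adjusted p of 0.985 in edgeR, or -0.33 without V1 1, and CRY1 of 0.43 ± 0.23 (SE) at an adjusted p of 0.985 in edgeR, or 0.23 without V1 1. The V1 and V3 comparisons share the CTR libraries. Over the 10 orthologues the median log2 fold change was 0.48 for V1 against CTR (0.0103 over all genes), -0.11 for V3 against CTR (-0.0043 over all genes) and 0.59 for V1 against V3 (0.031 over all genes), of which the first and the last rest on V1 1.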

How the data were processed

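RNA was measured in bulk in 8 KPCA tumours and 10 Met5a libraries, per the labels. The authors deposited whole-number counts per gene, with 1 table per species, and FPKM values of the same genes. The sources used here do not give an aligner, a counter, the use of strand or the mouse build. Human gene positions are those of GENCODE 29 on GRCh38. All per-sample columns were used (0 left out), and rows naming no gene held 0 counts.

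Low counts were filtered by filterByExpr (edgeR 4.0.16, minimum count 10), leaving 16287 mouse and 17175 human genes, and 15205 for the pooled comparison. Differences were tested two-sided by edgeR's quasi-likelihood method (R 4.3.3), each species in 1 fit with a coefficient for each group, TMM scaling, Benjamini-Hochberg adjustment and a threshold of 0.05. The script was tested on simulated data. CPM used the library sizes and TMM factors of these filtered genes, and log2 CPM a prior count of 2. Relations over the 8 tumours are described by r and rho, and the permutation p-values planned for them are left out because the choice of genes used these levels. Total counts ran from 15489888 to 28070669, and a count of 0 allows up to 3 counts, which covers counting error only.

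The 10 genes, the gene lists and the tests were chosen with earlier results of these data known. All 10 genes and their orthologues are named. Of the other clock genes, the 3 with the smallest p in KO against WT are named, since none was called, and others named were chosen after their values were seen. The profile comparison named the 5 closest genes for Dbp and for Arntl, by rule. Where groups do not overlap, every library of one lies on the same side of every library of the other.

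Alternatives were RLE factors, no filter on low counts, DESeq2 1.42.0, limma 3.58.1 on log2(FPKM + 1) where FPKM reached 1, fits of only the 2 groups compared, tumour numbers under or over 500 as a covariate, a 3-group fit for the pooled comparison, a replicate block in Met5a, each library left out, and KO543 with WT438 left out. The count of genes with groups that do not overlap was recomputed under RLE, on FPKM and without tumours, which was chosen after seeing the data.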

Additional observations from a re-analysis of the deposited data

Results flagged for a closer look

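NR1D1 stood at 86.3 CPM in V1 1, against 5.79 to 12.5 CPM in the other 3 V1 libraries. The gap between V1 1 and the nearest of them was 0.916 of the range of the group, over the limit that Dixon's test sets for 4 samples. TEF stood at 66.2 CPM in V1 1, against 6.96 to 16.1 CPM in the other 3, with a gap of 0.846 of the range. These were the 2 values past the limit among 20 groups screened, the 10 orthologues in V1 libraries and, only as a screen of single tumours, the 10 genes in KO tumours, and chance gives about 1 in 20. Both lie in the same library, and genes of 1 library are not independent of each other.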

How the results depend on the processing

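Without a filter on low counts, edgeR called 2 clock genes in KO against WT, Nr1d1 and Bhlhe40, among 276 of 28942 genes (0.954%), and 1 in Het against WT, Nr1d1, among 63 genes (0.218%). The genes were chosen on these contrasts, so these calls support nothing. That setting called 154 genes in KO against Het, with no clock gene, and 533, 226 and 75 in V1 against CTR, V3 against CTR and V1 against V3, with no orthologue. The cause was not tested. No other alternative, including RLE, DESeq2 and limma, called a clock gene or an orthologue. Over all genes limma called 1 in KO against WT, DESeq2 called 68 in V1 against CTR, and leaving out single libraries gave 0 to 2 genes in KO against WT and in Het against WT, 0 to 6 in V1 against CTR, 0 to 1 in V3 against CTR and 0 to 3 in V1 against V3.

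The number of clock genes with groups that do not overlap was 6 in KO against WT without KO543 and WT438 (52% of all genes) and 2 to 5 without single tumours (54.9% of all genes without WT568). In Het against WT it was 6 with all tumours, 5 under RLE or on FPKM, 9 without KO543 and WT438 (70%) and 6 to 10 without single tumours (82.9% without WT568). Of 600 log2 fold changes of the 10 genes under alternatives, 574 moved by less than the spread within groups and 26 by more, and 49 turned their sign.

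Of 420 log2 fold changes of the orthologues, 395 kept their direction and 25 turned. When single libraries were left out, V1 against CTR ran from -0.16 to 1.72 for NR1D1, -0.45 to 1.02 for DBP, -0.39 to 1.03 for TEF, -0.68 to 0.64 for PER1, -0.31 to 0.87 for PER2, -0.52 to 0.88 for PER3 and -0.26 to 0.30 for ARNTL, each lowest without V1 1. V3 against CTR ran from -1.16 to 0.36 for DBP, -0.21 to 0.25 for PER2 and -0.22 to 0.17 for ARNTL. V1 against V3 ran from -0.33 to 1.54 for NR1D1, -0.19 to 1.22 for TEF, -0.34 to 0.97 for PER1, -0.34 to 0.84 for PER2, -0.31 to 1.08 for PER3, -0.24 to 0.36 for ARNTL and -0.19 to 0.27 for BHLHE40.

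Deviations of Met5a libraries of the same number had correlations from -0.191 to 0.289. Libraries of different numbers were not compared in this way, so these values cannot decide whether the numbers pair them. A replicate block called 0 orthologues in the 3 comparisons (3, 0 and 3 genes in all in V1 against CTR, V3 against CTR and V1 against V3) and turned ARNTL to 0.022 in V3 against CTR and BHLHE40 to 0.066 in V1 against V3. Tumour numbers are not shared between groups. Differences of Cry1, Dbp or Per1 smaller than their spread within groups cannot be seen with 2 WT and 2 Het tumours.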
